A study of Homo sapiens with 4 samples.

Results

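The genes described here encode the vacuolar H+-ATPase (V-ATPase) and the lysosomal proteins that signal beside it. They were taken by name from the protein-coding rows of the count table: symbols that begin with ATP6V0 or ATP6V1, ATP6AP1 and ATP6AP2, LAMTOR1 to LAMTOR5, LAMP1 to LAMP3, and TFEB, TFE3, MITF and MCOLN1. The rule took 38 of 61860 genes, and 21 further rows that match a name are pseudogenes or noncoding transcripts and were left out. Of the 38, 33 had enough counts to be tested and 5 did not. The rule used no measured value.

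RNA-seq was done on HT1376, an established human bladder cancer cell line. Cells were given either 1 nM enfortumab vedotin (EV, 2 samples) or a control that the labels call WFI (2 samples), for 48 h. EV is an antibody-drug conjugate that binds nectin-4 on the cell surface and, once inside lysosomes, releases monomethyl auristatin E, a drug that disrupts microtubules. No genotype, strain or further agent is given for either group, and all samples came from 1 line grown in the same medium. Whether replicates were separate cultures is not stated in the labels, so p-values here measure only a spread that may be technical. Totals ran from 19368791 to 20727175 counts per library. CPM is used for levels: a library's counts divided by its size after adjustment by TMM (trimmed mean of M values), so a rise or fall is relative to the other genes of a library.

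Markers of the labelled cell type were partly absent from the controls. KRT7, a keratin of simple and urothelial epithelia, stood at 436 ± 7.90 CPM in the controls (SD, n = 2), whereas KRT20 and the uroplakin genes UPK1A, UPK1B, UPK2, UPK3A and UPK3B had between 0 and 11 counts each over both controls. The 10 urothelial markers summed to 478 and 469 CPM in the controls and 807 and 816 CPM in EV. In the test described below, 5 of them had enough counts and all 5 were called higher, beside 34.5% of all genes tested. For 3 of the 5 the log2 fold change was 1 or more, up to 9.92. Of the 10 markers 4 had 0 counts in the controls. A marker with almost no control counts could pass the filter on low counts only through EV, so it could only rise. Markers of the cells known for tissue-restricted V-ATPase subunits were low. The 4 intercalated cell markers summed to 1.16 and 0.956 CPM in the controls and 2.86 and 3.56 CPM in EV, with the defining factor FOXI1 at 1 count over all libraries. The 6 osteoclast markers summed to 12.4 and 11.2 CPM in the controls and 16.1 and 19.7 CPM in EV, and DCSTAMP had 0 counts throughout. Of 2 intercalated cell markers tested 1 was called higher, and of 3 osteoclast markers tested 2 were, beside 34.5% of all genes tested. Their log2 fold changes were 1 or more, up to 4.19 and 4.48 in the 2 lists. The 15 leukocyte markers went from 2.13 and 2.87 to 45.0 and 45.3 CPM, of which ITGAM made up 26.0 ± 0.700 in EV, while PTPRC, the common leukocyte antigen, had 4 counts over the controls and 13 over EV. Of the leukocyte markers 8 had 0 counts in the controls, and ITGAM, CD79A and CSF1R, with 1 to 7 counts per control, passed the filter on low counts only through EV. CD14 was counted 26 and 42 times in the controls, and 128 and 146 times in EV. The 7 fibroblast markers summed to 11.5 and 12.2 CPM in the controls and 13.6 and 11.4 CPM in EV, and the 6 endothelial markers to 10.9 and 13.7 and to 20.3 and 22.3 CPM. The part of such genes in the results below was not tested. In bulk RNA, fewer cells of a type and less RNA per cell cannot be told apart.

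The V-ATPase is a rotary proton pump. Its cytosolic V1 sector hydrolyses ATP and its membrane V0 sector carries protons into the lysosome, which acidifies the lumen so that cathepsins and other hydrolases can work. The Ragulator complex (LAMTOR1 to LAMTOR5) holds the Rag GTPases on the lysosome surface next to the pump, and amino acids act through them on the kinase complex mTORC1. TFEB, TFE3 and MITF are transcription factors that mTORC1 keeps in the cytoplasm when nutrients are ample. Once in the nucleus they bind an E-box, CACGTG, in the promoters of lysosomal genes. The calcium channel MCOLN1 and the pump subunits are among their known targets.

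Most of these genes were higher after EV, by small amounts. In edgeR's quasi-likelihood test with Benjamini-Hochberg adjustment over all 17465 genes tested, 24 of the 33 members tested were called higher, 3 lower and 6 did not pass an adjusted p of 0.05. Over all genes tested 66% were called, 34.5% higher and 31.5% lower, and over the 13554 protein-coding genes tested 70.5%, 36.2% higher and 34.4% lower. One of the 24, ATP6V1FNB, is no subunit of the pump and passed the filter on low counts only through its EV counts, so it could only rise. Without it and a readthrough row that had no counts, 23 of 32 were higher. The median log2 fold change of the 33 was 0.35, against 0.02 over all genes tested. The groups did not overlap in 31 of the 33, while this held for 82.8% of all genes tested (42.1% with EV above, 40.7% with EV below). Most members are abundant, and small differences are called more readily in abundant genes. Among protein-coding genes at a mean log2 CPM of 5 or more, 83.3% were called, 41.9% higher and 41.4% lower, and of the 23 members in that range 20 were higher and 2 lower. A fold change of 2 or more (log2 of 1) was reached by 5 members, all higher, or 4 without ATP6V1FNB, where 17.5% of all genes tested rose and 13.3% fell by that much. Of the abundant protein-coding genes 9.22% rose and 10.1% fell by that much, and of all protein-coding genes tested 15.3% and 11.9%. Fold changes of that size in either direction made up 30.8%, 19.3% and 27.2% of all, abundant protein-coding and all protein-coding genes tested. The plot of levels by library shows all members tested apart from ATP6V1FNB.

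**Figure D1:**
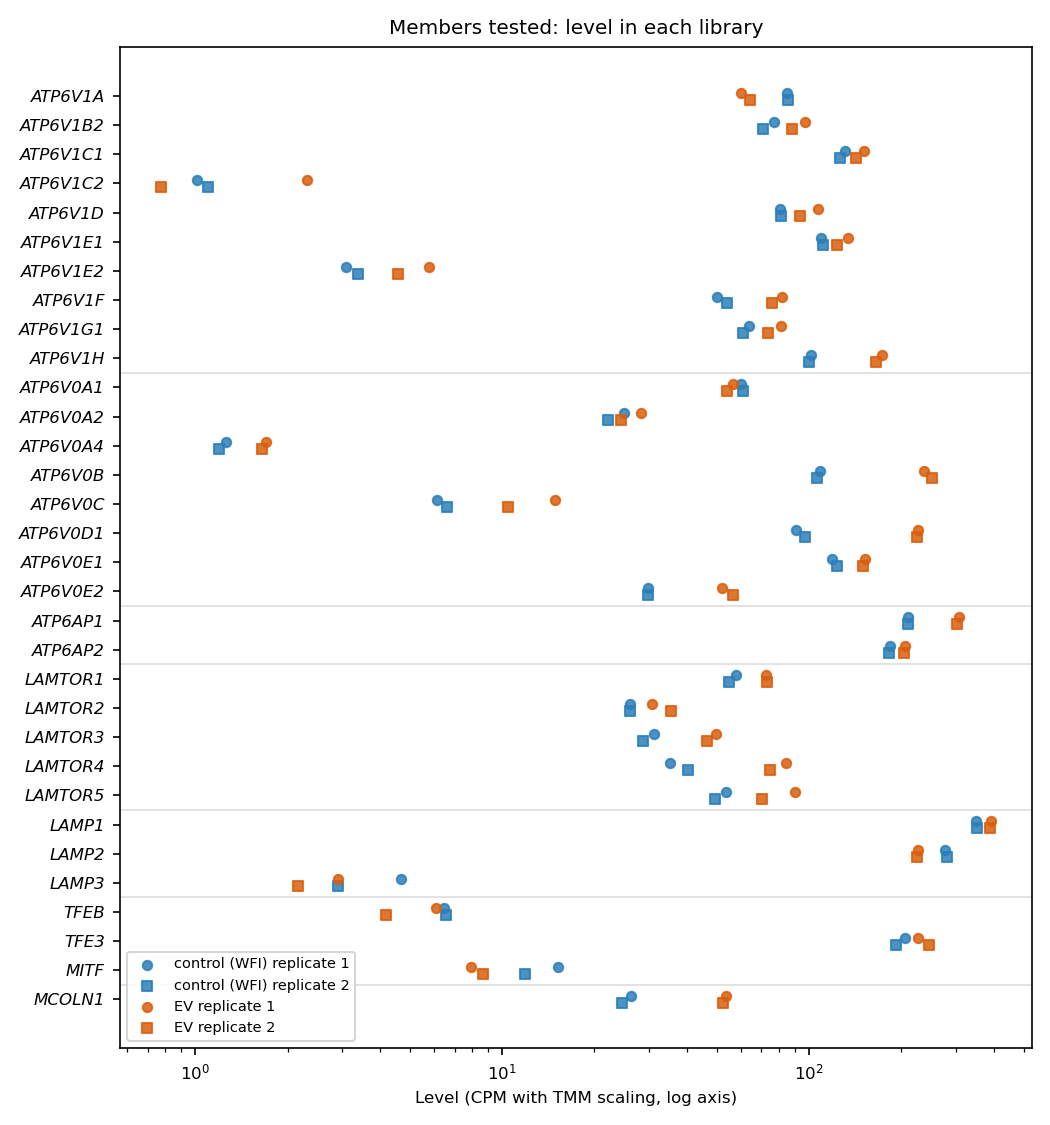
Level of each member tested, apart from ATP6V1FNB, in the 4 libraries. The x axis is CPM with TMM scaling on a log axis, each row is a gene, grey lines separate the roles, colours mark the groups and shapes the replicates. ATP6V0B, ATP6V0D1 and MCOLN1 lie about 2 times or more further right in EV than in the controls, and ATP6V1A and LAMP2 lie further left.

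Transcript length differed between the higher and lower members, of which the lower were only 3. The 24 higher members had a median principal transcript of 1780.5 bases and the 3 lower members one of 4591 bases, beside 3546.5 bases for the abundant protein-coding genes. By merged exon length, which the offsets below use, these medians were 4091, 5526 and 5673.5 bases. The median over all genes tested was 4377 bases, near that of the higher members. With offsets for spliced length and GC content in the fit, 15 members were called higher and 8 lower, and over all genes 28.1% were higher and 36.7% lower. These offsets moved the median of all genes by -0.15 on the log2 scale. Relative to that median the members' median was 0.36 with the offsets and 0.32 without, and 25 against 27 of the 33 lay above it. ATP6V0D1, ATP6V0B, ATP6V1H, ATP6V0E2, MCOLN1, LAMTOR3, LAMTOR4, LAMTOR5, ATP6AP1, ATP6V1B2 and ATP6V1D kept a call as higher under the offsets and under the other alternatives run, the added threshold on fold change aside. ATP6V1A and LAMP2 kept a call as lower, though LAMP2 stood at -0.12 and lay 0.01 above the median of all genes in the fit with offsets. LAMTOR1, LAMTOR2 and TFE3 were called lower with the offsets (adjusted p = 0.045, 0.0186 and 0.0134), at -0.03, -0.17 and -0.02 relative to the median of all genes.

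The promoters of the members with the largest rises are shown first, with those of 2 members that hold the motif and rose less (ATP6V1G1 and LAMP1), because the factors among the members bind CACGTG. The windows run from 250 bases before to 50 after the start of transcription and come from RefSeq on GRCh38.p14. They lie at chr16:67481108-67481407 (minus strand) for ATP6V0D1, chr1:43974710-43975009 (plus) for ATP6V0B, chr7:100148668-100148967 (plus) for LAMTOR4, chr19:7522374-7522673 (plus) for MCOLN1, chr9:114587519-114587818 (plus) for ATP6V1G1 and chr13:113296989-113297288 (plus) for LAMP1. Capitals mark CACGTG, which reads the same on both strands.
ATP6V0D1: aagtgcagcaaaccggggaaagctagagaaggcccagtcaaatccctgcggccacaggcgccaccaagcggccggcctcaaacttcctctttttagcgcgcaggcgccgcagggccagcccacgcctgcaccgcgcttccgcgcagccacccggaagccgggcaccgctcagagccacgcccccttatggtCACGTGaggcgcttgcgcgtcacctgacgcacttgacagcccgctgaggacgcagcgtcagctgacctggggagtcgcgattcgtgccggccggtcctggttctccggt
ATP6V0B: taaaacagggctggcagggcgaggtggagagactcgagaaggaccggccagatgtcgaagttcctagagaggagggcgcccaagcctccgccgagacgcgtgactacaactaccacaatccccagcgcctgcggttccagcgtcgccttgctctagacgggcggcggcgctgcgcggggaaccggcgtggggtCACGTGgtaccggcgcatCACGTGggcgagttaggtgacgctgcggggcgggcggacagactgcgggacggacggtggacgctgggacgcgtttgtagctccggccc
LAMTOR4: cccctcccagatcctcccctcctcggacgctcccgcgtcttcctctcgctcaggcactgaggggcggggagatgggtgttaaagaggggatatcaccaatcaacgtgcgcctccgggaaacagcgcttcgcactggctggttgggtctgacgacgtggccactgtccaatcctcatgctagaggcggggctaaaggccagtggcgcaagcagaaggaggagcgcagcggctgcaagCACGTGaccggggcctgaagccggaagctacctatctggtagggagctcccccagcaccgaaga
MCOLN1: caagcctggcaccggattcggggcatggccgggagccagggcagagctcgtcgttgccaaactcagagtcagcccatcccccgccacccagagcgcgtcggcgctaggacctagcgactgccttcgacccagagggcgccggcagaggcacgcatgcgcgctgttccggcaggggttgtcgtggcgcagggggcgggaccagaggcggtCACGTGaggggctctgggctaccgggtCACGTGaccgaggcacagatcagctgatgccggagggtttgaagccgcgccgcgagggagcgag
ATP6V1G1: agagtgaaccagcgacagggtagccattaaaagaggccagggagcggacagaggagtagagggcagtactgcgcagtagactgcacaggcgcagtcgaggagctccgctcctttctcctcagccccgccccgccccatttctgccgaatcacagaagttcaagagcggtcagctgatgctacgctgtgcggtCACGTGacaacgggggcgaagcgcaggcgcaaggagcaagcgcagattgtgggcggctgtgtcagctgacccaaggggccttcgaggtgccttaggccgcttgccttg
LAMP1: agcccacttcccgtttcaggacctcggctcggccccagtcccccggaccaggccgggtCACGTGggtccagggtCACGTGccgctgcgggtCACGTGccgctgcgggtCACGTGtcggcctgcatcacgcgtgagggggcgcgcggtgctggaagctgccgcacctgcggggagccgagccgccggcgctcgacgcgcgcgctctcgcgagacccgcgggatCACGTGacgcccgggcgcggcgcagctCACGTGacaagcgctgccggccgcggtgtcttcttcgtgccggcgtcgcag

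RefSeq promoters were matched for 28 of the 38 members (41 windows, since some genes have several starts). The members without one in the table were ATP6V1A, ATP6V1B2, ATP6V1C1, ATP6V1E2, ATP6V1H, ATP6V1FNB, ATP6V0D2, ATP6V0E1, LAMP2 and LAMP3. CACGTG was found in 9 of the 41 windows (22.0%), from 8 genes, and in 7.26% of all 35116 promoters and 8.92% of the promoters of protein-coding genes tested. Those 8 genes were ATP6V0B, ATP6V0D1, ATP6V0E2, ATP6V1G1, LAMP1, LAMTOR1, LAMTOR4 and MCOLN1. The longer TCACGTGA, which contains CACGTG, was found in 4 of these genes (ATP6V0D1, ATP6V1G1, LAMP1 and MCOLN1) and in 0.98% of all promoters. The AP-1 motif TGACTCA, searched on both strands, was in the TFE3 promoter alone among members and in 4.95% of all promoters. LAMP1 held CACGTG 6 times, MCOLN1 and ATP6V0B 2 times each. In ATP6V0D1, ATP6V0B and ATP6V1G1 a copy began 59, 57 and 58 bases before the start of transcription.

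All 8 genes with CACGTG were called higher in EV, with a median log2 fold change of 0.96, against 10 of 16 members tested whose windows lacked it (median 0.33). The 8 differed from these in level as well, and their lowest mean log2 CPM was 5.29 (MCOLN1). Of the 5 members without it that were not called, ATP6V1C2, ATP6V0A4 and TFEB stood at 0.46, 0.63 and 2.57. ATP6V0A2 and ATP6V0A1 stood at 4.65 and 5.86. The part of level in this split was not tested. LAMP1, with the most copies, rose least of the 8 (log2 fold change 0.15), and LAMTOR1, LAMP1 and ATP6V1G1 did not keep their direction in the fit with length and GC offsets. Across all 1331 protein-coding genes tested with CACGTG in a window, 38.0% were called higher and 33.4% lower (median 0.05), beside 35.4% and 35.3% of the 9590 genes without it. For TCACGTGA the shares were 30.4% higher and 38.4% lower over 237 genes. A match is a description of these letters, and binding was not measured.

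**Figure D2:**
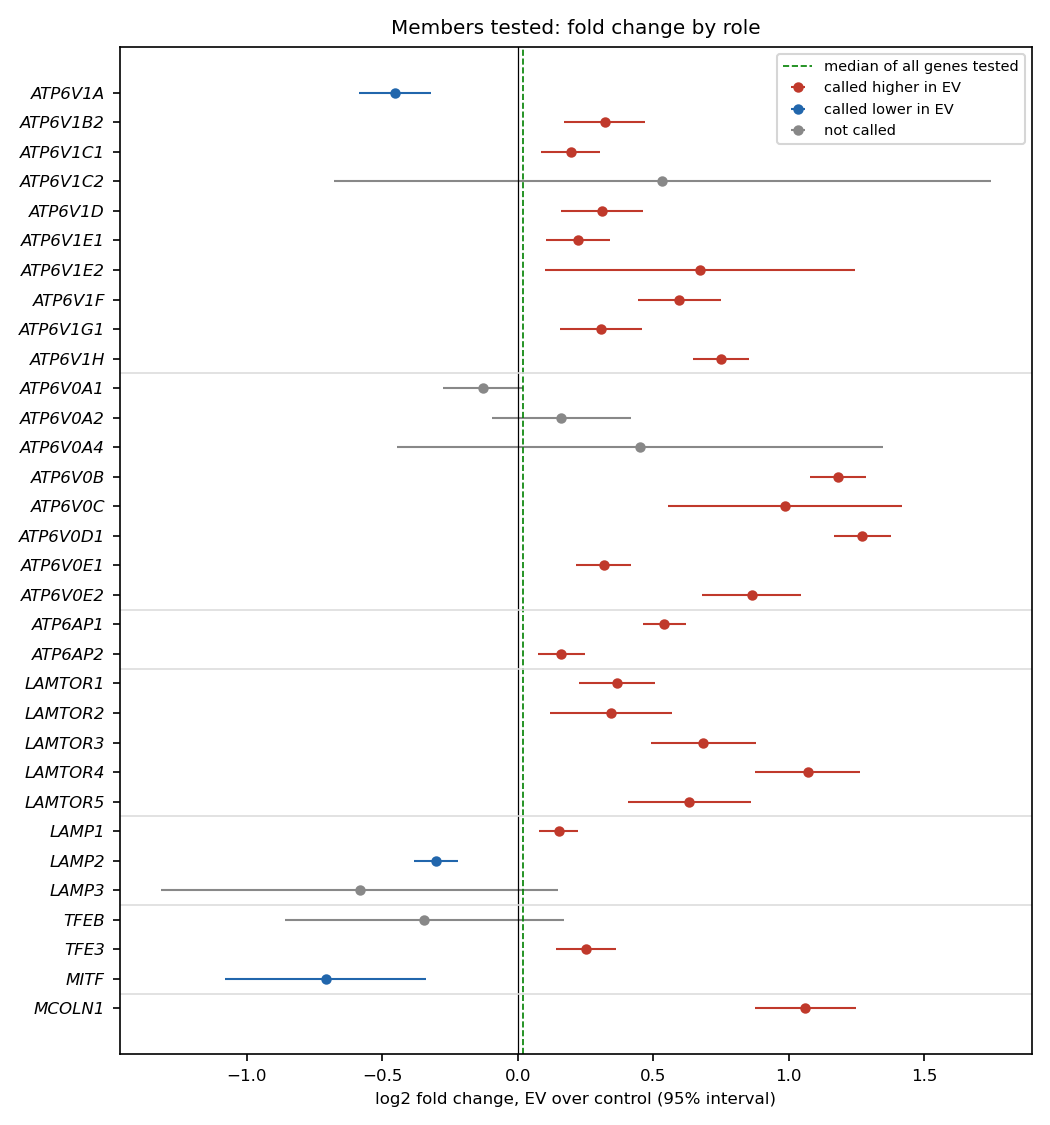
Log2 fold change of each member tested, EV over control, apart from ATP6V1FNB, with its 95% interval from edgeR's quasi-likelihood fit. Colours give the call, grey lines separate the roles (V1, V0, accessory, Ragulator, LAMP, MiT/TFE, MCOLN1) and the dashed line is the median of all genes tested (0.02). Points of the V0 sector reach 1.27, while the V1 sector ends at 0.75.

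The members of the V0 sector had a median log2 fold change of 0.66. Of the 8 tested 5 rose and 3 missed the threshold, with 0 called lower. Over all genes tested 34.5% were called higher and 31.5% lower. TCIRG1, a V0 gene that the name rule does not match, is not counted here and was called lower (log2 fold change -0.24). ATP6V0D1 encodes the d subunit, which joins the central stalk to the proton-carrying ring. It stood at 90.4 and 96.9 CPM in the controls and at 227 and 226 CPM in EV. Both EV libraries lay above both controls, by 2.42-fold (log2 fold change 1.27, SE 0.05, edgeR's adjusted p = 1.63e-09). ATP6V0B encodes the c'' subunit of the ring, and its level was 109 and 106 CPM in the controls and 237 and 252 CPM in EV. The groups were again apart, by 2.27-fold (log2 fold change 1.18, SE 0.05, edgeR's adjusted p = 2.52e-09), and by 0.71 on the log2 scale with length and GC offsets. An antisense gene that overlaps ATP6V0B, ENSG00000285649, rose from 0.194 and 0.0956 CPM to 13.2 and 12.7 CPM, and without the strand setting of the counting, reads of the pair cannot be told apart.

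ATP6V0C, the gene of the ring's main c subunit, had 6.15 and 6.60 CPM in the controls and 14.8 and 10.5 CPM in EV. The EV libraries were higher but differed from each other by more than the controls did (log2 fold change 0.99, SE 0.20, edgeR's adjusted p = 0.00105). With length and GC offsets that call was lost, at a log2 fold change of 0.31 (edgeR's adjusted p = 0.198). Its level per kilobase of principal transcript, 5.42 in the controls, was low beside 82.9 for ATP6V0B. ATP6V0C has 4 processed pseudogenes with 6 counts over the controls and overlaps 3 genes on its strand, so how its reads were assigned is uncertain.

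The e subunit is a small membrane protein encoded by ATP6V0E1 and ATP6V0E2. ATP6V0E1 had 119 and 123 CPM in the controls and 152 and 150 CPM in EV (log2 fold change 0.32, edgeR's adjusted p = 0.00011), and turned to -0.08 with the offsets (0.157). ATP6V0E2 had 29.8 and 30.0 CPM in the controls and 52.0 and 56.7 CPM in EV (log2 fold change 0.86, SE 0.08, edgeR's adjusted p = 4.13e-06). Without the offsets both genes were called higher, ATP6V0E2 by more. The ATP6V0E2 share of the pair's CPM per kilobase of principal transcript went from 17.7% ± 0.328 to 23.8% ± 1.31 (SD, n = 2). The share did not overlap between groups (exact two-sided permutation p = 0.333, the smallest that 2 samples against 2 can give). By merged exon length the EV share was higher by 2.36 percentage points in place of 6.16. An antisense gene, ATP6V0E2-AS1, also rose, from 1.74 and 1.77 to 4.56 and 2.79 CPM.

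The a subunit anchors the pump and decides where in the cell it resides. None of the 3 a subunit genes among the members passed the test. ATP6V0A1 had 59.9 and 61.0 CPM in the controls and 56.6 and 54.1 CPM in EV (log2 fold change -0.13, 95% interval -0.28 to 0.02, edgeR's adjusted p = 0.11). It was called lower when EV replicate 1 was left out (-0.17, edgeR's adjusted p = 0.0468) or the count filter dropped (-0.21, 0.0262), and stood at 0.05 with the offsets. ATP6V0A2 overlapped between groups, with 25.0 and 22.2 CPM in the controls and 28.4 and 24.3 CPM in EV (0.16, interval -0.10 to 0.42). Under the length and GC offsets ATP6V0A2 was called higher (log2 fold change 0.56, edgeR's adjusted p = 0.00108). ATP6V0A4, used by acid-secreting kidney cells, had 25 to 32 counts per library (0.45, interval -0.45 to 1.35). The a3 subunit is encoded by TCIRG1, whose name the rule does not match. It fell from 121 and 125 to 101 and 107 CPM (log2 fold change -0.24, SE 0.05, edgeR's adjusted p = 0.00202), and stood at -0.64 with the offsets. TCIRG1 held the largest share of the a subunit's CPM per kilobase, 65.7% ± 0.548 in the controls and 63.0% ± 1.99 in EV (SD, n = 2), and the EV samples lay below the controls.

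**Figure D3:**
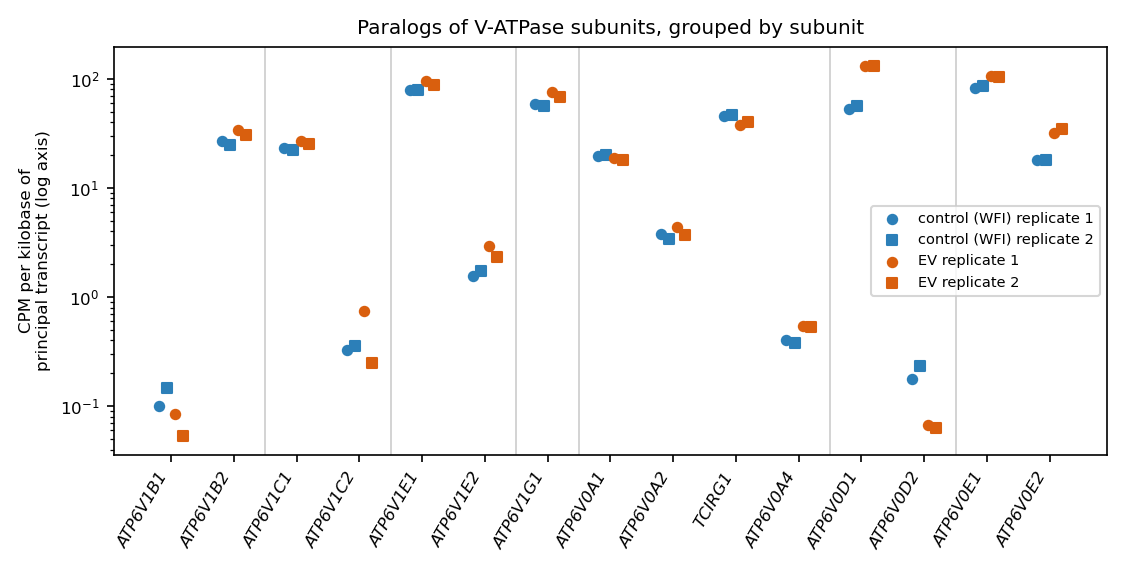
Level of the paralogs of each V-ATPase subunit in the 4 libraries, as CPM per kilobase of principal transcript on a log axis. Vertical lines separate the subunits B, C, E, G, a, d and e, colours mark the groups and shapes the replicates. Each of the B, C, E and d subunits has 1 paralog that holds over 97% of the pair in every library, whereas the a and e subunits are shared.

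The V1 sector had a median log2 fold change of 0.32. Of its 10 genes tested 8 rose, 1 fell and 1 missed the threshold, beside 34.5% higher and 31.5% lower over all genes tested. The gene that fell was ATP6V1A, which encodes the catalytic A subunit. It had 85.1 and 85.5 CPM in the controls and 60.3 and 64.4 CPM in EV, so that both EV libraries lay below both controls (log2 fold change -0.45, SE 0.06, edgeR's adjusted p = 6.32e-05). Its partner ATP6V1B2, the nucleotide-binding B subunit, went the other way, from 76.9 and 70.8 to 96.8 and 87.8 CPM (0.32, SE 0.07, edgeR's adjusted p = 0.00158). ATP6V1A ranged from -0.53 to -0.40 and ATP6V1B2 from 0.23 to 0.50 over the alternatives run.

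ATP6V1H, a regulatory subunit that couples V1 to V0, showed the largest rise of the V1 sector. It stood at 101 and 100 CPM in the controls and 173 and 166 CPM in EV, 1.68-fold higher (log2 fold change 0.75, SE 0.05, edgeR's adjusted p = 1.14e-07). ATP6V1F, a small subunit of the central stalk, had 50.1 and 53.9 CPM in the controls and 81.8 and 75.7 CPM in EV (0.60, SE 0.07). This direction was not kept by ATP6V1F in the fit with length and GC offsets (-0.11, edgeR's adjusted p = 0.212), nor by ATP6V1G1 (-0.14, edgeR's adjusted p = 0.0908). ATP6V1G1 and ATP6V1E1, which form the outer stalks, rose by 0.31 and 0.22 and the central stalk gene ATP6V1D by 0.31, or 0.20 without EV replicate 1. ATP6V1E1 missed the threshold when control replicate 1 was left out (0.18, edgeR's adjusted p = 0.0677) and with the offsets (0.01, 0.933), and ATP6V1G1 when control replicate 2 was left out (0.24, 0.0537). ATP6V1E1 has 3 pseudogenes with 34 counts over the controls and ATP6V1G1 has 7 with 2. ATP6V1C1, whose product clamps V1 onto V0, rose by 0.20 (edgeR's adjusted p = 0.00474). It missed the threshold when control replicate 2 was left out (0.14, edgeR's adjusted p = 0.154) or the count filter dropped (0.12, 0.0805), and stood at 0.41 with the offsets. ATP6V1D overlaps EIF2S1 and PALS1 on the other strand, and both of those rose as well (log2 fold changes 0.34 and 0.76).

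The tissue-restricted V1 paralogs were scarce. ATP6V1E2 had 3.10 and 3.39 CPM in the controls and 5.77 and 4.60 CPM in EV (log2 fold change 0.67, SE 0.26, edgeR's adjusted p = 0.0393). It did not pass when control replicate 1, control replicate 2 or EV replicate 1 was left out (edgeR's adjusted p = 0.201, 0.119 and 0.113), nor with DESeq2 (adjusted p = 0.0972), without a count filter (0.124) or with the offsets (0.0707). RHOQ, which overlaps ATP6V1E2 on the other strand, fell by 0.59 on the log2 scale. ATP6V1C2 was counted 21 and 23 times in the controls, and 42 and 15 times in EV, so the EV libraries lay on either side of the controls. Its log2 fold change of 0.53 (interval -0.68 to 1.75) became 1.11 without EV replicate 2 (edgeR's adjusted p = 0.0348) and -0.46 without EV replicate 1. ATP6V1B1, the B subunit of kidney and inner ear, reached 4 and 6 control counts against 3 and 2 in EV, below the filter. ATP6V1G3 had 0 counts in all 4 libraries, which allows a level of up to 0.143 to 0.165 CPM by counting error. ATP6V0D2, the d subunit of osteoclasts, reached 9 and 12 control counts against 3 and 3 in EV, also below the filter.

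ATP6V1G2 and the readthrough row ATP6V1G2-DDX39B had 0 counts as well, but they lie on chromosome 6 between 29 and 33 Mb, where 2 of 153 protein-coding genes (1.31%) had 10 or more counts in every library, against 57.7% of those on the rest of the chromosome. These rows therefore give no measurement. ATP6V1FNB is a separate gene that neighbours ATP6V1F on the same strand. It was counted 5 and 3 times in the controls, and 40 and 38 times in EV (log2 fold change 3.39, SE 0.56, edgeR's adjusted p = 0.000317). As given above, it passed the filter on low counts only through EV, so it could only rise. The gene KCP overlaps it and ATP6V1F on the other strand and rose from 0.823 and 0.765 to 3.79 and 2.58 CPM.

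Both accessory subunits were called higher, beside 34.5% of all genes tested. ATP6AP1, which helps to assemble the pump and guides it through the secretory pathway, had 210 and 209 CPM in the controls and 307 and 303 CPM in EV (log2 fold change 0.54, SE 0.04, edgeR's adjusted p = 1.94e-07), and stood at 0.20 with the offsets. ATP6AP2, also known as the prorenin receptor, rose by 0.16 (edgeR's adjusted p = 0.00358), but missed the threshold when either control replicate was left out (0.098 for replicate 1, 0.14 for replicate 2) or the count filter dropped (0.174), and stood at 0.51 with the offsets. Summed per kilobase of principal transcript, the V0 members went from 267 and 273 to 488 and 495, and the V1 members from 373 and 374 to 509 and 469. The V0 sum leaves out TCIRG1, which held the largest share of the a subunit, so the V0 and V1 sums were not ranked. These sums weigh each subunit once and do not follow its number in the complex.

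All 5 Ragulator genes were called higher, beside 34.5% of all genes tested. Their median log2 fold change was 0.63, or 0.27 with length and GC offsets. LAMTOR4, a subunit of the core, had 35.2 and 40.4 CPM in the controls and 84.1 and 74.6 CPM in EV. The EV libraries lay above the controls by 2.10-fold (log2 fold change 1.07, SE 0.09, edgeR's adjusted p = 1.07e-06). LAMTOR3, a scaffold for the MAP kinase kinase MEK1, went from 31.2 and 28.7 to 49.9 and 46.5 CPM (0.69, SE 0.09). LAMTOR5 went from 53.8 and 49.3 to 89.7 and 70.3 CPM (0.63, SE 0.10). LAMTOR1, whose lipid tail fixes the complex to the membrane, had 57.6 and 54.9 CPM in the controls and 72.3 and 72.8 CPM in EV (0.37, SE 0.06, edgeR's adjusted p = 0.000392). LAMTOR2 rose from 26.2 and 26.1 to 30.9 and 35.4 CPM (0.35, SE 0.10, edgeR's adjusted p = 0.0112), but missed the threshold when control replicate 1, control replicate 2 or EV replicate 2 was left out (0.0885, 0.0938 and 0.0616). As given above, LAMTOR1 and LAMTOR2 turned in direction with the length and GC offsets, and LAMTOR4 stood at 0.44, LAMTOR5 at 0.27 and LAMTOR3 at 0.88 there. Per kilobase of principal transcript the 5 genes spanned 7.09 (LAMTOR3) to 62.4 (LAMTOR4) in the controls, although their products are present once each in the complex.

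LAMP1 and LAMP2, the most abundant glycoproteins of the lysosomal membrane, moved in opposite directions. LAMP1 had 350 and 352 CPM in the controls and 390 and 389 CPM in EV, a rise of 1.11-fold with no overlap (log2 fold change 0.15, SE 0.03, edgeR's adjusted p = 0.0017). It missed the threshold when either control replicate was left out (edgeR's adjusted p = 0.0868 for replicate 1, 0.067 for replicate 2) or the count filter dropped (0.154), and with length and GC offsets its sign turned (-0.06, edgeR's adjusted p = 0.142). LAMP2, which also serves chaperone-mediated autophagy, fell from 277 and 280 to 227 and 225 CPM (log2 fold change -0.30, SE 0.04, edgeR's adjusted p = 2.5e-05). LAMP3, found in mature dendritic cells, was counted 97 and 61 times in the controls, and 53 and 42 times in EV (-0.58, 95% interval -1.32 to 0.15, edgeR's adjusted p = 0.144). With the offsets LAMP3 was called lower (-0.87, edgeR's adjusted p = 0.0353). CCR7, another marker of those cells, had 7 counts over the controls and 2 over EV.

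The 3 transcription factors differed widely in level. TFE3 had 205 and 193 CPM in the controls and 227 and 247 CPM in EV, a rise of 1.19-fold (log2 fold change 0.25, SE 0.05, edgeR's adjusted p = 0.00109), whose direction turned with the length and GC offsets. MITF had 15.3 and 11.9 CPM in the controls and 7.92 and 8.68 CPM in EV. Both EV libraries were lower (log2 fold change -0.71, SE 0.17, edgeR's adjusted p = 0.00323), but MITF missed the threshold when control replicate 1 was left out (-0.55, 0.0641). TFEB had 6.49 and 6.55 CPM in the controls and 6.10 and 4.18 CPM in EV. It did not pass the test (-0.34, 95% interval -0.86 to 0.17, edgeR's adjusted p = 0.216), but was called lower without EV replicate 1 (-0.65, edgeR's adjusted p = 0.0242) and with the offsets (-0.65, edgeR's adjusted p = 0.0287). Per kilobase of principal transcript TFE3 stood at 58.2 ± 2.55 in the controls, MITF at 2.82 ± 0.492 and TFEB at 2.77 ± 0.0182 (SD, n = 2). TFE3 was thus the most abundant of the 3, and MITF and TFEB did not differ beyond their spread. MITF has several promoters, and the counts do not separate its isoforms.

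MCOLN1, which releases calcium from lysosomes, had 26.2 and 24.6 CPM in the controls and 53.7 and 52.5 CPM in EV. Its level was 2.09-fold higher with little spread between replicates (log2 fold change 1.06, SE 0.08, edgeR's adjusted p = 8.32e-07). It overlaps PNPLA6 on the same strand, a gene whose level was not called different (log2 fold change 0.04, edgeR's adjusted p = 0.57). Over the alternatives its log2 fold change ranged from 0.62 to 1.12.

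By level per kilobase of principal transcript, the members differed widely. In the controls LAMP1 was first at 130 ± 0.484, followed by ATP6AP1 at 99.8 ± 0.144, ATP6V0E1 at 84.5 ± 2.29 and ATP6V0B at 82.9 ± 1.38 (SD, n = 2), and the last pair did not differ beyond their spread. In EV ATP6V0B came first at 188 ± 8.36, and ATP6AP1 (145 ± 1.34) and LAMP1 (144 ± 0.318) were within each other's spread behind it. By merged exon length the order differed, with ATP6V0E1 (74.6), ATP6V1F (65.9) and LAMP1 (61.1) first in the controls and ATP6V1F (99.8), ATP6V0E1 (93.0) and ATP6V0B (69.1) first in EV. The order thus depends on which transcript of a gene is expressed, which the counts do not show.

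Other genes of the lysosome and its signaling were described from lists chosen with earlier results of these data known. Of 13 genes tested on the list of V-ATPase assembly and regulation, 3 were called higher and 8 lower (median log2 fold change -0.24), beside 34.5% and 31.5% of all genes tested. That list holds the pump subunit gene TCIRG1, and without it 3 of 12 were higher and 7 lower (median -0.40). DMXL2 and DMXL1, parts of the RAVE complex that joins V1 to V0, fell from means of 48.3 and 50.5 CPM to 18.2 and 22.9 CPM (log2 fold changes -1.41, SE 0.10, and -1.14, SE 0.09), with no overlap between groups. MEAK7 fell by 0.96 on the log2 scale. Of the other RAVE genes, named after their values were seen, WDR7 went from 26.2 and 24.6 to 10.3 and 9.61 CPM and ROGDI from 9.15 and 7.60 to 12.8 and 11.1 CPM. The merged exons of DMXL1, DMXL2 and WDR7 span 13680, 13807 and 15694 bases, and with length and GC offsets DMXL2 stood at -0.86 and DMXL1 at -0.38 on the log2 scale. Whether this list differed from the members was not tested.

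**Figure D4:**
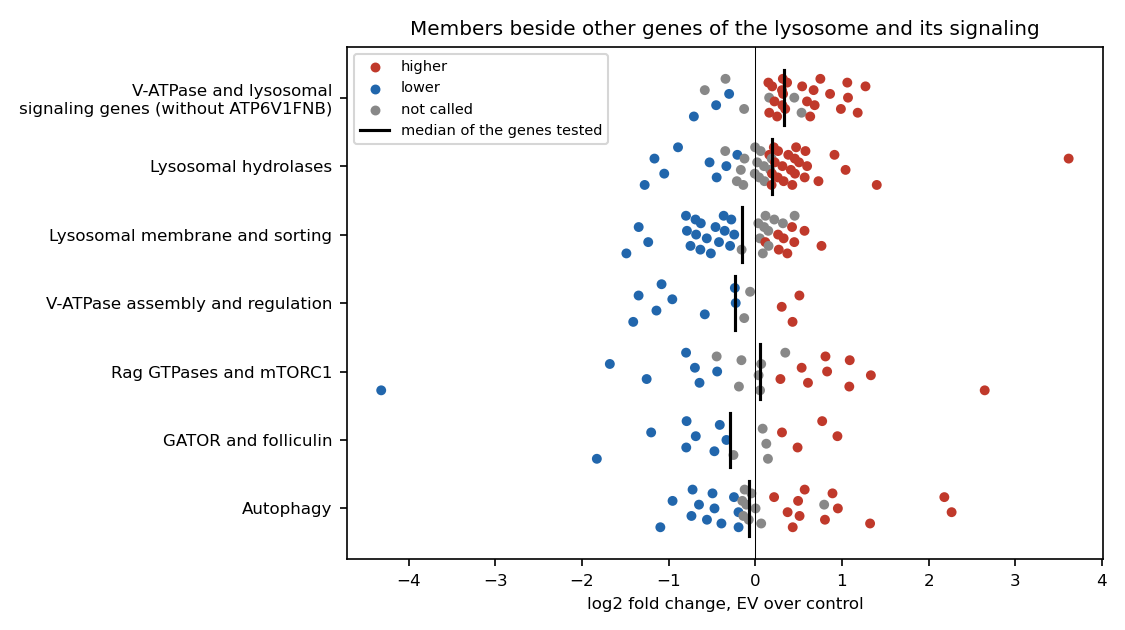
Log2 fold change, EV over control, of each gene tested among the members (without ATP6V1FNB) and in 6 lists of related genes. Each point is a gene, coloured by its call, with small vertical offsets for display, and black bars are medians. The members' median is 0.33, that of V-ATPase assembly and regulation genes -0.24 and that of lysosomal hydrolases 0.19.

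Among the lysosomal hydrolases and their cofactors, 24 of 46 tested were called higher and 8 lower (52.2% and 17.4%), and 14 missed the threshold (median 0.19). Over all genes tested 34.5% were called higher and 31.5% lower. LGMN, an asparaginyl endopeptidase, rose from 54.7 and 50.7 to 647 and 645 CPM (log2 fold change 3.62, SE 0.04, edgeR's adjusted p = 3.19e-13). The cathepsin gene CTSZ rose by 0.51. The value for CTSZ turned to -0.13 with the length and GC offsets. In that fit the list held 14 higher and 20 lower, beside 28.1% and 36.7% of all genes. CTSB encodes cathepsin B, a protease that can cut the linker of EV, and was named after its values were seen. It had 1367 and 1395 CPM in the controls and 1600 and 1605 CPM in EV. NEU1, under the filter, lies in the region of chromosome 6 without usable counts. Of 39 lysosomal membrane and sorting genes, 9 rose and 19 fell (23.1% and 48.7%, median -0.16). IGF2R, the large receptor that carries hydrolases to lysosomes, fell by 1.24, the tethering gene VPS18 fell by 1.49 and the cholesterol transporter NPC1 fell by 0.80 on the log2 scale.

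Of 23 Rag GTPase and mTORC1 genes tested, 9 rose and 7 fell (39.1% and 30.4%, median 0.06), shares near those of all genes tested (34.5% and 31.5%). SESN1 and SESN2, inhibitors upstream of mTORC1, rose by 2.65 and 1.33 (SESN2 by 0.85 with the offsets), and AKT1S1, an mTORC1 subunit that restrains it, rose by 1.09. RRAGA, a GTPase that binds Ragulator, was named after its values were seen, and went from 55.5 and 57.0 to 22.8 and 24.3 CPM. The lowest point of this list in the plot of related genes is CASTOR1, an arginine sensor counted 15 and 12 times in the controls and 0 and 1 times in EV, also named after its values were seen. CASTOR1 passed the filter on low counts only through the controls, so it could only fall. RRAGD, a known target of the MiT/TFE factors, had 30.2 and 28.6 CPM in the controls and 30.7 and 30.8 CPM in EV (log2 fold change 0.07, 95% interval -0.14 to 0.27). Of 16 GATOR and folliculin genes, which act on the Rag GTPases, 4 rose and 8 fell (median -0.29). FNIP1 fell by 0.80 and WDR59 fell by 0.69 on the log2 scale, with FNIP1 at -0.50 under the offsets. Of 33 autophagy genes tested, 12 rose and 12 fell (36.4% each, median -0.08), again near the shares over all genes tested (34.5% and 31.5%). MAP1LC3B, whose product coats autophagosomes, rose from 162 and 164 to 724 and 753 CPM (log2 fold change 2.18, SE 0.04), ATG3 rose by 1.33 and ATG2A fell by 1.10 on the log2 scale.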

How the data were processed

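The authors deposited whole-number gene counts for 4 libraries, without normalization. The build was hg38, per the submitters' processing notes, and the kit was directional, per the labels' protocols. For the aligner, the counter, the strand setting and the annotation, the value is not given in the sources used here. Gene types and lengths (merged exons, principal transcript) came from GENCODE release 29.

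All genes were fitted with edgeR 4.0.16 (R 4.3.3) on group, with TMM scaling, filterByExpr and quasi-likelihood tests. SE was the log2 fold change over the square root of F, and 95% intervals used the fitted degrees of freedom. The alternatives tried were DESeq2 1.42.0, scaling by RLE or upper quartile, dropping the count filter, requiring 50 counts in 2 or more samples, blocking on replicate number, omitting 1 sample at a time, a minimum log2 fold change of 1, and offsets fitted on length and GC (mgcv 1.9.3). Shares by merged length and role medians with offsets were alternatives chosen after seeing the data. Code was tested on simulated data. Counting noise was exceeded between replicates (chi-square over its degrees of freedom 2.25 for controls, 4.72 for EV). Members and lists were chosen with earlier results of these data known. Full values were set for members past a log2 fold change of 1, TFEB, TFE3, MITF, MCOLN1, LAMP1, LAMP2, TCIRG1, the clearest call of each role and the 3 clearest of each list, of which some are not reported here. Other members and genes are cited as described in the text. No protein sequences were used here.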

Additional observations from a re-analysis of the deposited data

How the results depend on the processing

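Of 360 log2 fold changes of members under alternatives, 322 kept their direction and side of the threshold, 22 lost the call, 7 gained one and 9 reversed. The offsets for length and GC made 15 members higher and 8 lower, and reversed ATP6V1F (-0.105), ATP6V1G1 (-0.139), ATP6V0A1 (0.048), ATP6V0E1 (-0.078), LAMTOR1 (-0.158), LAMTOR2 (-0.303), LAMP1 (-0.058), TFE3 (-0.152) and, among listed genes, CTSZ (-0.129). They gave 14 hydrolases higher and 20 lower, 5 membrane and sorting genes higher and 1 assembly gene higher, and medians of 0.43 for V0, 0.268 for Ragulator and -0.122 for the LAMP genes. Requiring a log2 fold change of 1 left 5 members higher and 0 lower, with 3063 and 2322 of all genes. It left 3 hydrolases higher and 3 lower, 0 and 3 membrane and sorting genes, 0 and 4 assembly genes, 4 and 3 Rag and mTORC1 genes, 0 and 2 GATOR and folliculin genes, and 3 and 1 autophagy genes. Upper quartile scaling moved the medians of V0 to 0.712, accessory to 0.407 and LAMP genes to -0.246, and RLE scaling those of accessory to 0.37 and LAMP genes to -0.282. Omitting 1 library gave 18 to 24 members higher and 2 to 5 lower, the 5 without EV replicate 1, and ATP6V1C2 ran from -0.457 to 1.106. By merged exon length the EV minus control share was -0.5287 points for ATP6V1B1, -1.251 for ATP6V0D2 and 2.363 for ATP6V0E2, and without division by length -0.4635 for ATP6V0D2. Where no value shows otherwise, the cause was not tested. Same-numbered samples did not deviate together (correlation 0.013), and with the replicate block 24 members were higher and 3 lower, as without it, with no member's call changed. Dropping the count filter moved the median of all genes by 0.22 on the log2 scale, to 0.243 over 38205 genes. The members' median was 0.244 in that fit, so the medians were about equal. With 2 libraries per group, members under about 100 counts have intervals over 1 wide on the log2 scale.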
